A study of Canis lupus familiaris with 3 samples.

Results

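Aminoacyl-tRNA synthetases were followed here in dog kidney epithelial cells carrying E47, through 5 genes, EPRS1, GARS1, IARS1, NARS1 and WARS1. They were taken as every row of the deposited value table whose single annotated symbol is one of these names, which gave 8 clones on 18 spots out of 7528 named clones and 27648 spots. MDCK cells are an epithelial line from dog kidney. The E47 transfectants of this line were set against MDCK-CMV control cells on arrays of human cDNA clones (the CNIO Oncochip), and both sides of each comparison were MDCK cells grown in the same medium. E47 is a helix-loop-helix transcription factor that the series title names in connection with E-cadherin and the epithelial to mesenchymal transition, and the comparison asks which transcripts differ when it is present. RNA extraction 1 of E47 cells was hybridised once, labelled with Cy5. RNA extraction 2 was hybridised with E47 in Cy3 on one array and in Cy5 on another, with control RNA in the other dye each time. The labels do not say whether the extractions came from separate cultures or clones of transfectants, so p-values measure the spread between these extractions, which may be technical.

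Aminoacyl-tRNA synthetases join each amino acid to its transfer RNA, the step that sets the meaning of each codon before the ribosome uses it. Every growing cell needs the whole set, and several cytosolic members sit together in a multi-synthetase complex held by scaffold proteins. Transcription of many cytosolic synthetase genes is raised by the factor ATF4 when amino acids run short or the integrated stress response is active. EPRS1 is a fused enzyme that charges glutamate and proline and belongs to that complex, as does IARS1, which charges isoleucine. GARS1 charges glycine in both cytosol and mitochondria, NARS1 charges asparagine, and WARS1 charges tryptophan and is known as a gene induced by interferon-gamma.

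All values below are log2 ratios of E47 over control, not levels. The deposited values state neither the base nor the direction of the ratio. The direction is likely from the channel order in the labels and the title: CDH1, the E-cadherin gene, was at −3.59 on this reading, and if the values ran the other way every sign below would turn. The 3 arrays correlated positively over spots (r = 0.613 to 0.769, dye swap included), so no sign was turned. Array medians lay between −0.00506 and 0.00266. The SD of an array ran from 0.43 to 0.623, and it was lowest on the array with E47 in Cy3. Of the kidney epithelium markers 4 of 6 fell in limma (median −1.76), namely CDH1, EPCAM, KRT8 and KRT19, against 3.85% of all named genes. CDH16 (−0.14) and PAX8 (−0.22) did not pass. The count was 4 of 6 without the Cy3 array of extraction 2 and 3 of 6 without its Cy5 array, against 8.55% and 0.635%. Among other markers, 1 of 3 for fibroblasts and 1 of 4 for leukocytes rose, against 5.34% of all named genes. None of 3 endothelial markers passed, and these list medians were 0.22, 0.04 and 0.10. As ratios hold no levels, they do not show which of these markers the cells express, and the part of these markers in the synthetase values was not tested.

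Of the 5 synthetase genes, WARS1 fell and the other 4 did not pass the test. In the limma fit, 212 of 5508 named genes (3.85%) fell and 294 (5.34%) rose at an adjusted p under 0.05, and the 1 of 5 here is a share over very few genes. The median of the 5 genes was −0.27, against −0.02 over all named genes. WARS1 and IARS1 were below 0 on every array, which held for 32.8% of all named genes. None of the 5 was above 0 on every array, which held for 1683 of the 5508 named genes. With so few genes, neither count sets these 5 apart.

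WARS1 was measured by 1 clone printed in duplicate. Its mean over the duplicate was −0.88 on the array of extraction 1, −0.94 with extraction 2 in Cy3 and −0.92 with extraction 2 in Cy5. The arrays and both dye orientations therefore gave nearly one value, and the duplicate spots lay within 0.0446 of each other on every array. The mean log2 ratio of WARS1 was −0.90 ± 0.04 (SD, n = 2 extractions), a ratio 1.87-fold lower with E47. The moderated SE of limma was 0.08, the 95% interval ran from −1.14 to −0.66, and the adjusted p was 0.0247. Of the 5508 named genes, 158 had a lower ratio. Averaging the swap arrays first keeps their own spread out of this SE. Without the Cy5 array of extraction 2 the WARS1 ratio was −0.91 but the adjusted p was 0.0577, in a fit that called 109 genes in place of 506. Over the alternatives its adjusted p ran from 0.00525 to 0.0577. The lowest came from taking the 3 arrays as separate samples, which counts the swap arrays of one RNA as replicates. Read as a natural logarithm, the WARS1 value would be 2.47-fold.

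EPRS1 gave no single answer, because its clones went apart. Clone AA599158 was at −1.16 in extraction 1, −0.42 in extraction 2 with Cy3 and −0.99 in extraction 2 with Cy5. Clone AA010158 was at −0.0038, 0.56 and 0.12 on the same arrays. The first was below 0 and below the second on each array, whatever the dye. The gap between the clones was 1.16, 0.98 and 1.10 on the 3 arrays, so it was much steadier than either clone alone. Duplicate spots differed by at most 0.442 for the first clone and 0.128 for the second, less than the gap on every array.

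**Figure D1:**
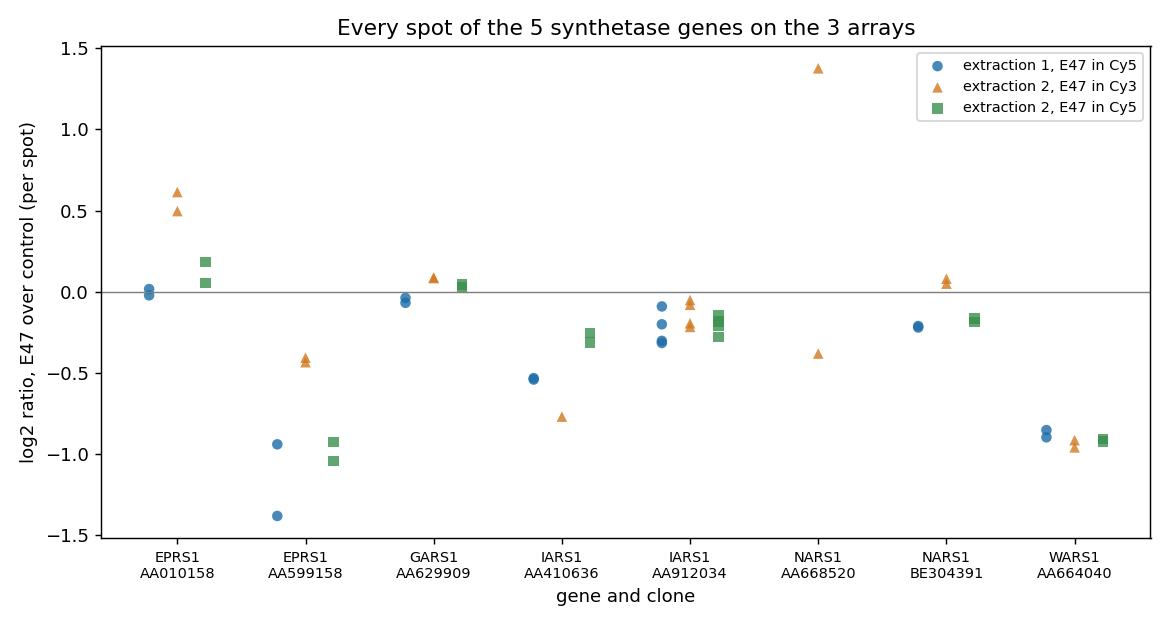
Log2 ratio of E47 over control (y axis) for each of the 18 spots of the 5 genes, grouped by clone (x axis); circles, triangles and squares are the arrays of extraction 1 in Cy5, extraction 2 in Cy3 and extraction 2 in Cy5. WARS1 lies near −0.9 on all 3 arrays, while the EPRS1 clones are about 1 log2 unit apart and the NARS1 clone AA668520 has a value on the Cy3 array alone.

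In a fit with each clone as its own feature, 3 of the 7 clones of the 5 genes that had a value on every array fell and none rose, against 308 of 6731 named clones (4.58%) that fell. Without the Cy3 array of extraction 2 the members' count was 2 of 7 (10.3% of all named clones), and without its Cy5 array it was 1 of 7 (1.4%). The 7 clones come from 5 genes on the same arrays, so they are few and not independent. EPRS1 clone AA599158 was at −0.93 ± 0.32 (SD, n = 2 extractions), 1.91-fold lower, with an adjusted p of 0.048 in limma. EPRS1 clone AA010158 was at 0.17 ± 0.24, with an adjusted p of 0.384 and a 95% interval from −0.18 to 0.52. The intervals of these clones of one gene did not overlap, since that of AA599158 ended at −0.52. The call of AA599158 was lost without the Cy5 array of extraction 2, at an adjusted p of 0.172, and with spot 8243 used alone, at 0.0564. The gene-level mean of −0.38, with an adjusted p of 0.153, averages clones of opposite sign and matches neither of them. That mean passed without the Cy3 array of extraction 2, at −0.51 and an adjusted p of 0.0488, within a range of 0.0488 to 0.544 over the alternatives.

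A gap of this size between clones was uncommon on these arrays. Of 1040 genes with several clones, 83 (7.98%) had a gap larger than the 1.10 of EPRS1, and the median gap was 0.27. Clones of opposite sign were common, in 401 genes (38.6%). Which part of the EPRS1 transcript each clone covers was not analysed here, nor was its match to the dog sequence, and the part of either in the gap was not tested.

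**Figure D2:**
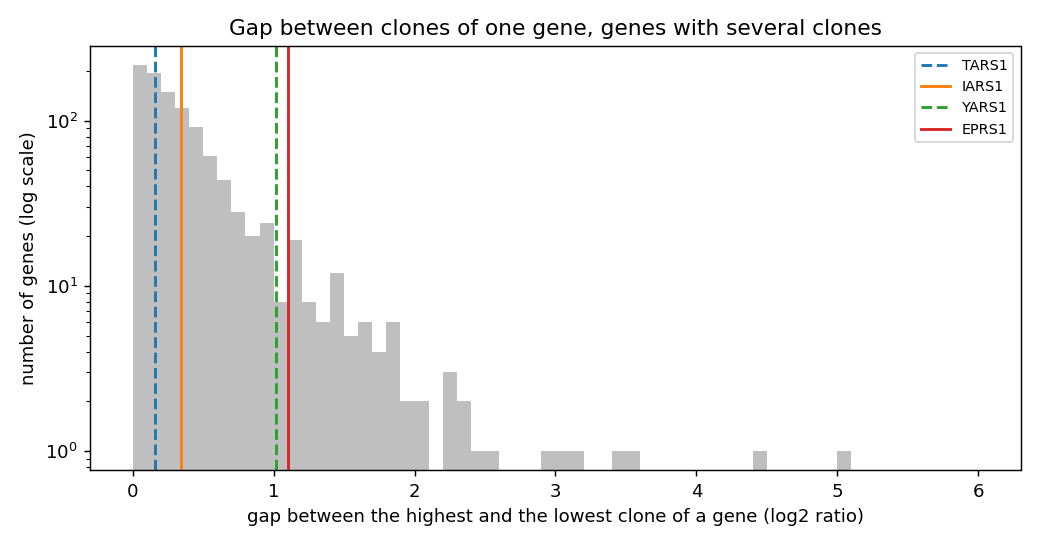
Histogram of the gap in mean log2 ratio between the highest and the lowest clone of a gene (x axis) over the 1040 genes with several clones (y axis, number of genes, log scale). Solid lines mark EPRS1 at 1.10 and IARS1 at 0.34, and dashed lines mark YARS1 at 1.02 and TARS1 at 0.16; EPRS1 and YARS1 lie in the thin upper tail.

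IARS1 was lower on every array in both of its clones, by a small amount. Clone AA912034 was printed at separate places on the array, and its 4 spots averaged −0.23 in extraction 1, and −0.14 (Cy3) and −0.205 (Cy5) in extraction 2. The duplicate starting at spot 2309 gave −0.15, −0.067 and −0.17, and the one starting at spot 2885 gave −0.31, −0.21 and −0.24. The second place was lower than the first on every array. Clone AA410636 was at −0.54, −0.77 and −0.31 on its spot with a value on every array, and the other spot of the pair gave −0.53 and −0.25 on the Cy5 arrays and no value in Cy3.

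At the clone level, IARS1 clone AA410636 fell, at −0.54 with an adjusted p of 0.0474, which is 1.46-fold lower. Its extraction means agreed to within 0.001 only because the dye swap values of −0.77 and −0.31 averaged to the value of extraction 1, and without either array of the swap the call was lost, at adjusted p-values of 0.0657 and 0.0962. IARS1 clone AA912034 was at −0.20 ± 0.04 (SD, n = 2) with an adjusted p of 0.199. The gap between the clones was 0.31, 0.63 and 0.11 by array, and 40.7% of genes with several clones had a larger one. The gene mean, weighted towards the clone with more spots, was −0.27 ± 0.03 (SD, n = 2), 1.20-fold lower, with a 95% interval from −0.51 to −0.03 and an adjusted p of 0.133. With each clone given equal weight it was −0.37, with an adjusted p of 0.0849, in a range of 0.0744 to 0.331 over the alternatives.

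NARS1 and GARS1 stayed near 0. NARS1 clone BE304391 was at −0.22 in extraction 1, 0.064 in extraction 2 with Cy3 and −0.18 in extraction 2 with Cy5, so its sign differed on the Cy3 array. Its mean was −0.14 ± 0.11 (SD, n = 2), with a 95% interval from −0.40 to 0.13 and an adjusted p of 0.357. The other NARS1 clone, AA668520, had values on the Cy3 array alone, and its duplicate spots there gave 1.38 and −0.38. It was left out of the tests, and with a spread of 1.76 between the spots it gives no usable value. GARS1, measured by clone AA629909, was at −0.054, 0.085 and 0.036 on the 3 arrays, on both sides of 0. The GARS1 mean was 0.0032 ± 0.08 (SD, n = 2), with a 95% interval from −0.25 to 0.26 and an adjusted p of 0.982.

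**Figure D3:**
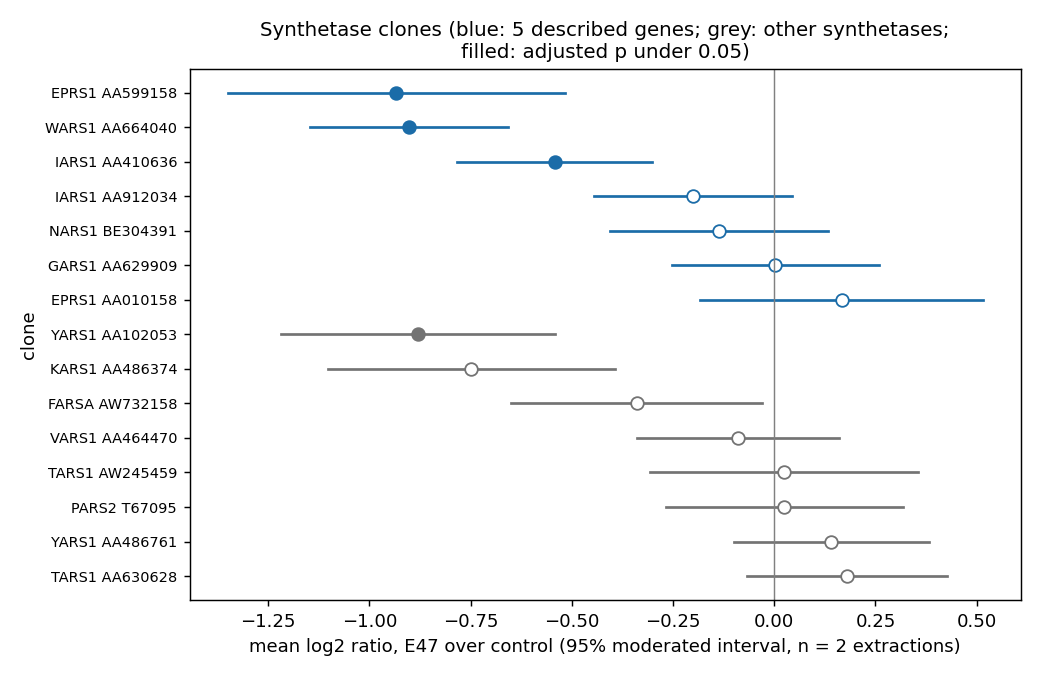
Mean log2 ratio of E47 over control (x axis) with the 95% moderated interval (n = 2 extractions) for each synthetase clone with a value on every array (y axis); blue marks the 7 clones of the 5 described genes, grey the 8 clones of other synthetases, and filled points have an adjusted p under 0.05. The filled clones are EPRS1 AA599158 at −0.93, WARS1 at −0.90, IARS1 AA410636 at −0.54 and YARS1 AA102053 at −0.88.

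Set against each other by gene mean, the genes ran from WARS1 as the lowest through EPRS1, IARS1 and NARS1 to GARS1. The place of EPRS1 rests on a mean of clones of opposite sign. Its clone AA010158 was above every other clone of these genes on every array, and above GARS1 by 0.05, 0.47 and 0.08. Of the 10 pairs of genes, 8 kept their order on all 3 arrays. The pairs share genes and the swap arrays share their RNA, so these orders are not independent. The share among other pairs of genes was not computed. WARS1 was below each of the other genes on every array. The difference was 0.91 ± 0.12 (SD, n = 2 extractions) to GARS1, 0.77 ± 0.15 to NARS1, 0.63 ± 0.07 to IARS1 and 0.52 ± 0.32 to EPRS1. The neighbours EPRS1 and IARS1 differed by −0.12 ± 0.25, less than the spread between extractions, and changed order on the Cy3 array. IARS1 and NARS1 differed by −0.13 ± 0.08, and NARS1 lay below GARS1 by 0.14 ± 0.03. These differences are a description, with no test run on them. The smallest 2-sided p that an exact sign-flip test over 2 extractions can give is 0.5. Of the 21 pairs of clones, 19 kept their order, and on the Cy5 arrays EPRS1 clone AA599158 was below WARS1, by 0.29 and 0.07, while on the Cy3 array it was above it by 0.52.

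**Figure D4:**
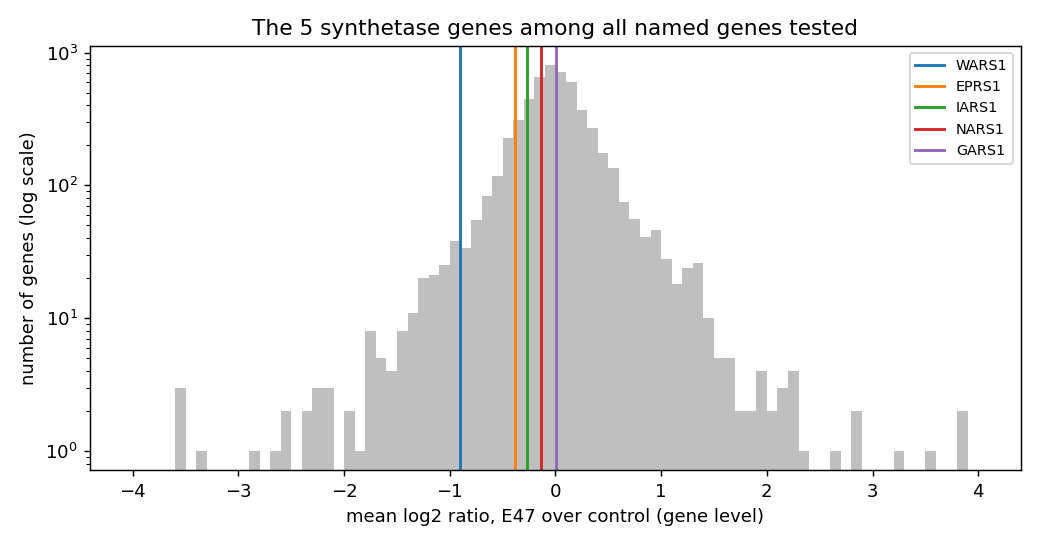
Histogram of the mean log2 ratio of E47 over control (x axis) of the 5508 named genes tested (y axis, number of genes, log scale), with vertical lines at the 5 synthetase genes. WARS1 at −0.90 lies in the lower flank with 158 genes below it, and GARS1 at 0.0032 lies in the middle, with 2906 genes below it.

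The arrays of the dye swap were farther apart for some synthetases than for others. Within extraction 2, the Cy5 array minus the Cy3 array gave −0.50 for EPRS1 and −0.24 for NARS1, against 0.02 for WARS1, 0.04 for IARS1 and −0.05 for GARS1. Over all named genes this difference had a median of −0.06 and an SD of 0.31. Both EPRS1 clones shifted the same way, so the gap between the clones stayed in place. The small IARS1 difference averages clones that shifted in opposite directions. Clone AA410636 was at −0.77 in Cy3 and −0.31 in Cy5, and clone AA912034 at −0.14 and −0.205. Extraction 1, which has no swap, gave an EPRS1 value 0.40 below the mean of extraction 2. Each orientation of extraction 2 is 1 array, so the dye and the array cannot be told apart.

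Of 33 other synthetase genes listed, 6 had values on every array, and none of them passed in limma at the gene level, while 3 were lower and none higher at an unadjusted p under 0.05. At that threshold 1005 of all named genes (18.2%) were lower and 958 (17.4%) higher. The median of the 6 was −0.21. KARS1, the lysine enzyme of the multi-synthetase complex, was at −0.92, −0.30 and −0.85 on the 3 arrays, with a mean of −0.75 and an adjusted p of 0.0554. Over the alternatives the adjusted p of KARS1 ran from 0.0275 to 0.24. KARS1 passed at 0.05 without the Cy3 array of extraction 2 and in a fit of the 3 arrays with a dye term, among others. That last fit takes the swap arrays as separate samples. As for EPRS1 clone AA599158, the KARS1 value was nearest 0 on the Cy3 array, while EPRS1 clone AA010158 was farthest from 0 there. YARS1, the tyrosine enzyme, had clones that went apart as in EPRS1. Clone AA102053 fell, at −0.88 with an adjusted p of 0.0379, which became 0.0984 when the Cy5 array of extraction 2 was left out. Clone AA486761 of YARS1 was at 0.14, at an adjusted p of 0.306. The YARS1 gap was 1.19, 0.71 and 0.99 by array, and 8.46% of genes with several clones had a larger one than its mean of 1.02. The YARS1 gene mean was −0.37 with an adjusted p of 0.0995. FARSA, VARS1, PARS2 and TARS1 lay between −0.34 and 0.10. AIMP1, a scaffold protein of the complex, was at −0.09 with an adjusted p of 0.653 and had values of both signs.

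Among 23 measured genes of the integrated stress response and amino acid supply, 11 fell and 2 rose, with a list median of −0.48, beside 3.85% and 5.34% of all named genes. Without the Cy3 array of extraction 2 the count was 12 lower and 0 higher, beside 471 lower (8.55%) and 448 higher of all named genes. Without its Cy5 array it was 5 lower and 0 higher, beside 35 lower (0.635%) and 74 higher. This list was chosen with earlier results of these data known, so its counts are a description and not an independent test. The list includes ATF4 itself, at −1.64, −1.76 and −1.73 on the 3 arrays, and with a limma-adjusted p of 0.0194. ASNS, the asparagine synthetase of amino acid metabolism and not a tRNA synthetase, was at −1.71, the folate enzyme MTHFD2 at −1.68, the serine enzyme PSAT1 at −1.17 and HERPUD1, a protein of endoplasmic reticulum quality control, at −2.27. BCAT1, a branched-chain aminotransferase, rose, at 1.47 with an adjusted p of 0.0458. Its adjusted p ran from 0.0164, with the 3 arrays as separate samples, to 0.0616 over the alternatives. The BCAT1 call was lost without either array of the swap (0.0533 without Cy3 and 0.0616 without Cy5). In log2 units the WARS1 change was smaller than that of ATF4, ASNS, MTHFD2, PSAT1 and HERPUD1. Those genes were named for the size of their ratios, so this order says little. Against the list median of −0.48, WARS1 was lower, at −0.90, while the median of the 5 synthetase genes was higher, at −0.27. Of 30 measured interferon response genes, a list that does not hold WARS1, none passed in limma; 6 were lower and none higher at an unadjusted p under 0.05, beside 18.2% and 17.4% of all named genes, and their median was −0.15.

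The profiles nearest to the mean of the 5 genes were those of FGG, FAAP20, RALGDS, STARD4 and SMG5, at distances of 0.0076 to 0.04. The distance was Euclidean over the 3 arrays, among 5427 named genes outside the 5 genes and all lists above. Other listed synthetases and stress response genes were therefore not eligible. The mean profile was −0.40, −0.20 and −0.34. Among the 5 genes themselves, IARS1 lay nearest to it, at a distance of 0.176, and WARS1 farthest, at 1.05.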

How the data were processed

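Per the labels' protocols, total RNA was amplified before it was labelled. The authors' deposited values, 1 column per array, were read as log2 ratios. Background correction and normalization are not given in the sources used, nor is the log base, and base 2 was read. Genes came from the platform annotation, and all 5 symbols are in the dog gene table of UU_Cfam_GSD_1.0. Spots that lacked a value on any array were left out, which kept 15 of the 18. Spots of a gene were averaged, the dye swap of extraction 2 was averaged, and 14008 features (5508 named genes and 8500 unnamed spots) entered limma (version 3.58.1, R 4.3.3; lmFit, eBayes), which tested each ratio against 0. P-values were adjusted by Benjamini-Hochberg over all features, and 0.05 was the threshold. Control RNA sits on every array, so the spread among control cells is not part of the test. A second fit took each clone as a feature (15231 features). The script was tested on simulated features drawn from the fitted prior. The gene fit called 22 of 13808 unchanged features, 75 of 100 with a 2-fold change and 95 of 100 with a 4-fold change. Unchanged features were thus a larger share of all calls in this single draw than the threshold of 0.05 aims at. Figures used matplotlib 3.10.9. Spot intensities were not analysed here, so how far each spot lies above background is unknown, and precision is limited by the number of arrays.

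The genes and lists were chosen with earlier results of these data known. The naming rule took all clones of the 5 genes, other synthetases that passed or else the 2 with the largest ratio, up to 6 stress response genes by size, and the 5 nearest profiles. The remaining synthetases and AIMP1 were named after their values were seen. The planned search of promoters for motifs was not run. Counts of list genes without each swap array were added after seeing the data. Alternatives changed the replicates, the normalization, the spot filter and averaging, the prior and the threshold.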

Additional observations from a re-analysis of the deposited data

How the results depend on the processing

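Over 17 alternatives, IARS1 and NARS1 kept their direction and stayed without a call, at −0.371 to −0.245 and −0.217 to −0.0559. WARS1 kept its direction and lost its call under 2 of them, a threshold of 0.01 (−0.902 as before) and the fit without the Cy5 array of extraction 2 (−0.908). With an extraction or an array left out, WARS1 ran from −0.927 to −0.877 and EPRS1 from −0.583 to −0.184, passing without the Cy3 array of extraction 2 (−0.509). GARS1 changed sign within −0.0542 to 0.0606 as a gene and −0.00905 to 0.0154 as a clone, and spot 2536 alone gave −0.00316. EPRS1 clone AA599158 ran from −1.07 to −0.792 without an array, with −1.03 for spot 8243 alone, and IARS1 clone AA410636 from −0.657 to −0.428. The cause of these changes was not tested.

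The count of 506 named genes was 1008 with 3 arrays as separate samples, 1175 with named genes adjusted alone and 1244 at a threshold of 0.10. It was 109 to 919 without an array of extraction 2. At a threshold of 0.01 limma called 0 genes, while 1005 were lower and 958 higher at an unadjusted p under 0.05. With 1 extraction left, values had no test.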
